A study of Mus musculus with 24 samples.

Results

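The 10 genes followed here are reported as direct targets of the tumour suppressor p53, or as brakes on cell growth that p53 acts through, and were measured in ribosome pulldowns from mouse spinal cord: Cdkn1a, Gadd45a, Mdm2, Ccng1, Bbc3, Pmaip1, Bax, Eda2r, Phlda3 and Trp53inp1. They were chosen by gene name, with earlier results of these data known. All 10 were found among the 38924 genes listed for each library. The study used RiboTag, in which Cre recombinase switches on an HA-tagged copy of the ribosomal protein Rpl22, so that tagged ribosomes and the mRNA on them can be pulled down with an antibody. Cre came from the ChAT locus, which marks cholinergic cells: in the spinal cord these are motor neurons and some other cholinergic neurons. All 24 mice were 8 weeks old, were of the background labelled B6.CgxB6.129 and carried 1 copy of the tagged Rpl22 allele (Rpl+/-). The 4 groups of 6 mice were heterozygous C201R with Cre (Chat+/-;C201R+/-), wild type (WT) with Cre (Chat+/-;C201R+/+), C201R without Cre (Chat+/+;C201R+/-) and WT without Cre (Chat+/+;C201R+/+). C201R is a mutation in Gars, the gene of glycyl-tRNA synthetase, and dominant Gars mutations cause a peripheral neuropathy. Pulldowns without Cre hold no switched-on tag and give the background of RNA that sticks to the beads.

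The p53 protein is a transcription factor that DNA damage and other stresses stabilise. Its targets divide the response among arrest of the cell cycle (Cdkn1a, Gadd45a, Ccng1), death through mitochondria (Bbc3, Pmaip1, Bax), damping of growth and survival signals (Phlda3) and feedback on p53 itself (Mdm2). Trp53inp1, a protein of stress and autophagy, and Eda2r, a receptor, stand outside these classes. Several of these genes, Cdkn1a, Gadd45a and Pmaip1 among them, are also known to respond to other stress pathways without p53, and motor neurons are cells that no longer divide.

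The p53 protein binds DNA as a tetramer, at a pair of 10-base half-sites that stand next to each other or are parted by a short spacer. Promoter windows from RefSeq (build GRCm38.p6), from 250 bases before to 50 after each transcription start, were at hand for 8 of the 10 genes, in 11 windows, and not for Pmaip1 and Trp53inp1. Pairs of half-sites with at most 3 mismatches to the consensus in all and a spacer of at most 1 base lay in the windows of 4 of these genes. Each half-site had to hold C at base 4 and G at base 7. The search was the same on both strands, since the consensus reads alike on each. Such pairs lay in 4 of the 11 windows and in 2.82% of all 32851 mouse windows. The 4 stretches are printed 5′ to 3′ on the gene's strand with 10 bases on each side, the pair in capitals, because they set Cdkn1a, the gene with the largest C201R change here, beside 3 that did not pass the test:
Cdkn1a: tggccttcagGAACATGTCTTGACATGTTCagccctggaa
Ccng1: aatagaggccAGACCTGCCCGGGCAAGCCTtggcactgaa
Bbc3: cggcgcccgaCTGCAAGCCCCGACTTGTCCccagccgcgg
Bax: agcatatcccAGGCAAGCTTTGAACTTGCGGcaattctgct

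The Cdkn1a pair has 1 mismatch and lies at chr17:29090928-29090947 on the plus strand, from 51 to 32 bases before the upstream one of the 2 RefSeq starts of the gene. The window of the downstream start held no such pair. The Ccng1 pair has 1 mismatch and lies at chr11:40755462-40755481 on the minus strand. The Bbc3 pair has 3 mismatches and lies at chr7:16309486-16309505 on the plus strand, and the Bax pair has 2 mismatches with a spacer of 1 base and lies at chr7:45467079-45467099 on the minus strand. With spacers of up to 13 bases allowed, 6 of the 11 windows, in 5 of the 8 genes, and 15.6% of all windows held a pair. Gadd45a was the gene added. A single half-site with 0 mismatches lay in 5 of the 11 windows, those of Cdkn1a, Gadd45a, Mdm2, Ccng1 and Bax, and in 8.36% of all windows. The motif TGATGNAA, the core of the element bound by C/EBP and ATF4 dimers, was searched on both strands and lay in 0 of the 11 windows and in 3.97% of all. A match of letters is not a measured binding site. The 250 bases before the upstream Cdkn1a start (chr17:29090729-29090978, plus strand) are shown whole, with the pair in capitals, as the setting of the gene that changed most:
Cdkn1a: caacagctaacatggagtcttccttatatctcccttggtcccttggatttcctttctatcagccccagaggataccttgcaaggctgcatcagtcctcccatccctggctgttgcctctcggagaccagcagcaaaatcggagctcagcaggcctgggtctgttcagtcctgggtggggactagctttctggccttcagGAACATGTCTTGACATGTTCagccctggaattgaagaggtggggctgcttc

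Libraries held between 8.9 and 28.29 M expected counts (M, 1000000). The markers of cholinergic and motor neurons (7 of 8 listed genes in the files) summed to between 927 and 1280 CPM (counts per 1000000, scaled by TMM) in C201R and between 822 and 1500 CPM in WT with Cre, against at most 253 CPM in any library without Cre, and no marker of any list was at 0 in every library of a group. One of these markers, Chodl, a gene of fast motor neurons, was lower in C201R with Cre, at a mean of 195 CPM in C201R and 415 CPM in WT (-1.02 ± 0.14 on the log2 scale, standard error, edgeR adjusted p = 0.00063), and the other 6 were not called. Gars itself was higher in C201R with Cre, by 0.80 ± 0.12 (adjusted p = 0.002), which does not check the mutation, since counts per gene do not show the allele. Library numbers in the labels fell into 2 runs, called here series 1 (7 libraries) and series 2 (17 libraries), with no statement in the labels of what sets them apart. The share of counts on Gm26924, a gene model on which ribosomal RNA reads pile up, spread from 8.01 to 43.26% in C201R and from 7.45 to 30.8% in WT with Cre. It was highest in C201R mouse 14003-1 and WT mouse 14701-9, both of series 1, and all 3 C201R libraries of series 1 were at 32.9% or above. Haemoglobin genes were higher in the C201R libraries with Cre by 1.08 to 1.34 on the log2 scale without passing the test, with summed blood markers of 22.6 to 491 CPM in C201R and 25.9 to 181 CPM in WT. Schwann cell markers summed to between 83.6 and 283 CPM in C201R and between 283 and 469 CPM in WT with Cre, and Pmp22 among them was called lower in C201R (-0.83 ± 0.21, adjusted p = 0.042). The part of the mix of tagged cells, of blood and of Schwann cell RNA in the genotype differences was not tested. Because these are pulldowns from a whole tissue, fewer tagged cells and less of an mRNA per cell cannot be told apart.

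In pulldowns with Cre, 4 of the 10 genes were higher in C201R than in WT, none was lower, 5 did not pass the test and Eda2r had too few counts to be tested. The 4 were Cdkn1a, Gadd45a, Pmaip1 and Phlda3. Of all 14634 genes tested, 2.29% were called higher and 1.82% lower at an adjusted p under 0.05 (edgeR quasi-likelihood test, library series as a term). The median log2 change of the 9 tested members was 0.83, beside -0.01 over all genes tested. The members were chosen with earlier results of these data known, so this contrast with all genes is no blind test of the set. For each of the 4 called genes, all 6 C201R libraries lay above the highest WT library. The share of all genes tested with such a gap was not computed. These 4 were picked by a test on the same libraries, so the gap is no further support for them.

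Among the genes of cell-cycle arrest, Cdkn1a had the largest change. It encodes p21, an inhibitor of cyclin-dependent kinases. It stood at a median of 29.8 CPM in C201R with Cre (lowest 15, highest 43.1), against 5.31 CPM in WT (lowest 1.91, highest 5.83). The lowest C201R library was more than 2-fold above the highest WT library. The change was 2.60 ± 0.30 on the log2 scale, or 6.07-fold (adjusted p = 0.00021), and Cdkn1a ranked 25 of all genes tested by p.

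Gadd45a, whose small acidic protein binds stress kinases and PCNA, came next by p. Its median was 20.4 CPM in C201R with Cre (lowest 14.8, highest 27.6), against 9.3 CPM in WT (lowest 7.6, highest 10.6). The groups were apart, and WT libraries differed little from each other. The change was 1.12 ± 0.18, or 2.17-fold (adjusted p = 0.0026). Exons of Gadd45a overlap those of E230016M11Rik on the opposite strand in GENCODE M21, and whether counting used strand is not given in the sources used here. That gene had at most 67 counts in a library. Cdkn1a exons likewise overlap an opposite-strand gene model, AC167363.2, which was not found in the files by name.

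Ccng1, which encodes cyclin G1, a partner of the phosphatase that acts on Mdm2, went the other way without passing the test. Its median was 19.7 CPM in C201R with Cre (lowest 10.5, highest 32.3) and 28.3 CPM in WT (lowest 27.8, highest 34.9). In all, 5 of the 6 C201R libraries lay below the lowest WT library, and the 3 of series 1 were the lowest of all, at 10.5, 15.3 and 16.9 CPM. These were also the 3 libraries with the most Gm26924 reads, at 43.26, 36.89 and 32.9%. The log2 change was -0.49 ± 0.18 (adjusted p = 0.15). It was -0.25 ± 0.18 when the share of Gm26924 was added to the fit (adjusted p = 0.80). Whether the ribosomal RNA share has a part in this difference was not tested.

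Mdm2, the ubiquitin ligase that sends p53 to degradation and is itself a p53 target, showed no such difference. Its median was 39 CPM in C201R with Cre (lowest 25.1, highest 47), against 42.3 CPM in WT (lowest 34.6, highest 49.7). The groups overlapped, with 2 C201R libraries, both of series 1, below all WT libraries. The log2 change was -0.13 ± 0.15 (adjusted p = 0.69).

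Of the genes that act at mitochondria in cell death, Pmaip1 was called. It encodes Noxa, a BH3-only protein that binds Mcl1. Its median was 4.99 CPM in C201R with Cre (lowest 4.08, highest 6.82), against 2.09 CPM in WT (lowest 0.606, highest 3.27). All C201R libraries lay above all WT libraries, on 37 to 208 counts per C201R library and 16 to 107 per WT library. The change was 1.49 ± 0.37, or 2.8-fold (adjusted p = 0.036).

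Bax, the effector that opens the outer mitochondrial membrane, varied widely within both groups. Its median was 8.6 CPM in C201R with Cre (lowest 4.04, highest 27.1), against 3.86 CPM in WT (lowest 2.49, highest 12.8). The highest library of each group was the one with the highest Gm26924 share in that group, mouse 14003-1 in C201R and mouse 14701-9 in WT. The log2 change was 0.83 ± 0.34 (adjusted p = 0.20). It was 0.87 ± 0.26 without those 2 mice (adjusted p = 0.04), which passes the test, and 0.15 ± 0.33 when the share of Gm26924 was added to the fit (adjusted p = 0.94). Bax also shares exons on its own strand with the readthrough model Gm45808, which was not found in the files by name.

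Bbc3, which encodes Puma, a BH3-only protein that frees Bax from its inhibitors, was near the limit of detection. Its libraries held 8 to 25 counts in C201R and 1 to 23 in WT with Cre. The median was 0.503 CPM in C201R (lowest 0.399, highest 4.6), against 0.44 CPM in WT (lowest 0.0951, highest 0.744). The groups overlapped and a single library, C201R mouse 14003-1, set the top of the range. The log2 change of 1.09 ± 0.85 did not pass the test (adjusted p = 0.54). Over summed counts, 98 in C201R and 83 in WT, the ratio per scaled library was 1.68 (exact 95% binomial interval 1.24 to 2.28, counting error only). Without C201R mouse 14003-1, which held 25 of the counts, it was 1.31, with an interval of 0.94 to 1.81 that includes 1. Without C201R mouse 14004-5 it was 1.96 (1.43 to 2.69).

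Phlda3, which damps growth and survival signals, was called. Its pleckstrin homology domain protein competes with Akt for membrane lipids. The median was 19.1 CPM in C201R with Cre (lowest 16.7, highest 28.4), against 12.4 CPM in WT (lowest 9.88, highest 13.9). The groups did not overlap, and the gap between them was small beside the spread within C201R. The change was 0.72 ± 0.17, or 1.65-fold (adjusted p = 0.03).

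Trp53inp1, a nuclear protein of stress and autophagy, was not called. Its median was 2.89 CPM in C201R with Cre (lowest 2.05, highest 11.4), against 2.57 CPM in WT (lowest 0.665, highest 3.05). The extremes were again mouse 14003-1 in C201R and mouse 14701-9 in WT. The log2 change was 0.68 ± 0.51 (adjusted p = 0.52).

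Eda2r, an X-linked gene for the receptor of the A2 isoform of ectodysplasin, had 14 counts over the 6 C201R libraries and 9 over the 6 WT libraries with Cre. The ratio of the summed counts was 2.21, with an exact 95% binomial interval of 0.893 to 5.8 that covers counting error only. Without C201R mouse 14004-2, which held 8 of the counts, it was 1.27 (0.371 to 3.98), and without WT mouse 14703-5, which held 7, it was 8.25 (1.89 to 74.8). No difference could be read from so few counts.

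**Figure D1:**
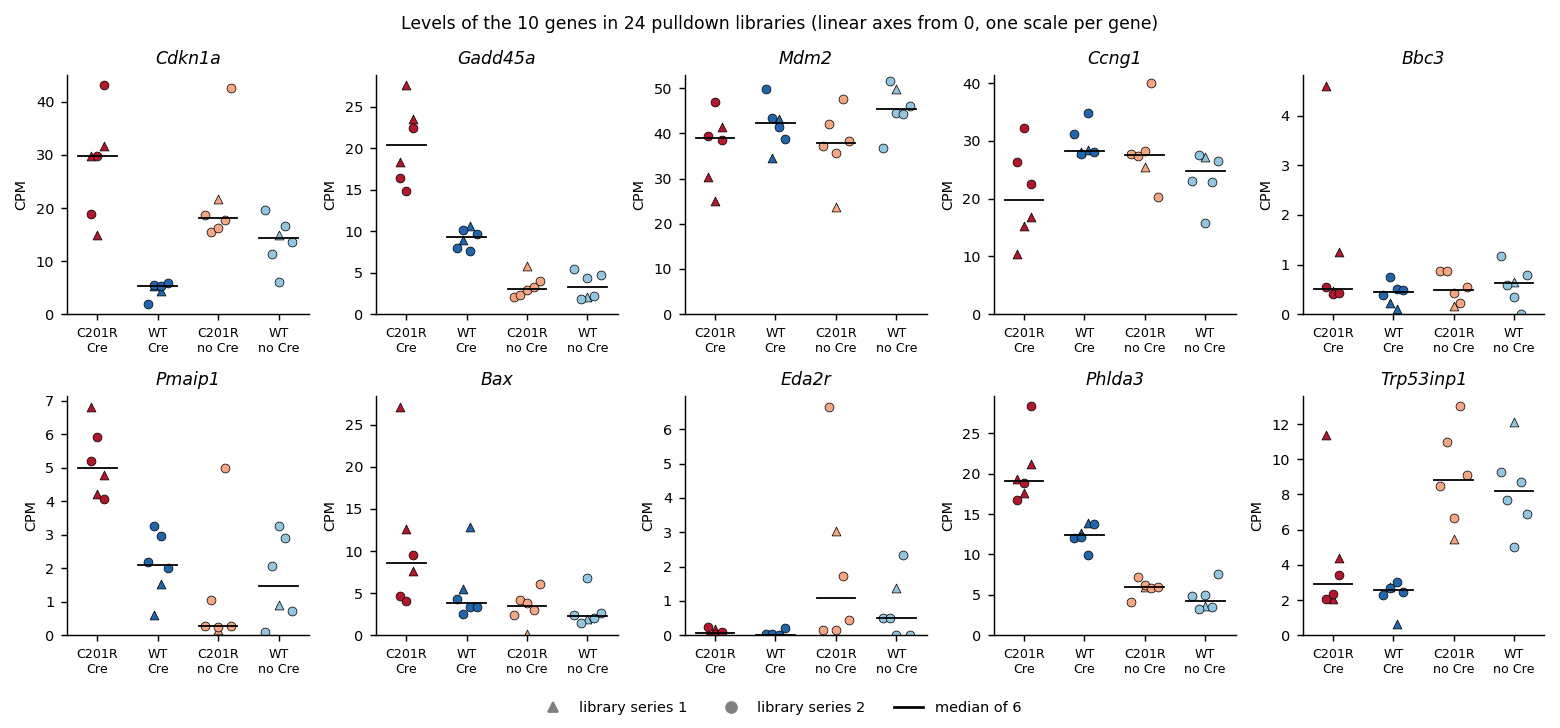
CPM of each of the 10 genes (y axis, linear from 0, 1 scale per gene) in the 6 libraries of each group (x axis: C201R with Cre, WT with Cre, C201R without Cre, WT without Cre). Triangles are series 1, circles series 2 and bars the median of 6. With Cre, the C201R points of Cdkn1a (15 to 43.1 CPM), Gadd45a, Pmaip1 and Phlda3 stand above every WT point, while those of Mdm2, Bbc3, Bax, Eda2r and Trp53inp1 run into the WT range.

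Levels of different genes can be set beside each other only per length, in TPM (transcripts per 1000000) as deposited. With Cre, Cdkn1a was the most abundant of the 10 in C201R at a median of 62.6 TPM, and was below 4 of the others in WT at 18.2 TPM. In C201R it was followed by Gadd45a at 34.6, Phlda3 at 29.5, Mdm2 at 23.1, Bax at 18.6 and Ccng1 at 9.63 TPM, and neighbours in this order overlapped in their ranges over 6 libraries. Mdm2 led in WT at 39.5 TPM, before Phlda3 at 28, Ccng1 at 21.8, Gadd45a at 20.8, Cdkn1a at 18.2 and Bax at 14.8 TPM, again with ranges that overlapped between neighbours. Pmaip1, Trp53inp1, Bbc3 and Eda2r made up the low end in both genotypes, with medians of at most 2.84 TPM in C201R and 2.24 TPM in WT. TPM shares out a fixed total, so the reads on Gm26924 lower the TPM of every other gene in the libraries that hold many of them.

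The change was then set out in each run of library numbers. Series 1 held 3 C201R and 2 WT libraries with Cre, and series 2 held 3 and 4. Fitted in series 2 alone, the 4 called genes were again called, with log2 changes of 2.74 ± 0.43 for Cdkn1a (adjusted p = 0.011), 1.01 ± 0.18 for Gadd45a (adjusted p = 0.0023), 0.97 ± 0.26 for Pmaip1 (adjusted p = 0.031) and 0.83 ± 0.18 for Phlda3 (adjusted p = 0.011). The series 2 fit called 1370 genes in all, beside 601 over both series. Its libraries are part of those that picked the 4 genes, so these calls are not independent of the first. Series 1 alone called none of the 10 and 1 gene in all, with 2 WT libraries. Its log2 changes were 2.43 ± 0.53 for Cdkn1a, 1.30 ± 0.43 for Gadd45a, 2.38 ± 0.92 for Pmaip1 and 0.59 ± 0.41 for Phlda3, all positive as in series 2.

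The levels were also set out in each run. Cdkn1a stood at 15 to 31.6 CPM in C201R and at 4.28 and 5.40 CPM in WT in series 1, and at 18.8 to 43.1 CPM in C201R and 1.91 to 5.83 CPM in WT in series 2. Gadd45a stood at 18.4 to 27.6 CPM in C201R and 8.92 and 10.6 CPM in WT in series 1, and at 14.8 to 22.5 CPM in C201R and 7.6 to 10.2 CPM in WT in series 2. Within each series, both genes were higher in every C201R library than in any WT library, and this held for Pmaip1 and Phlda3 too. That follows from the separation over both series given above, so it is no separate evidence that the runs agree.

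Among the genes not called over both series, the log2 change of Bbc3 was 3.60 ± 1.69 in series 1 and -0.20 ± 0.60 in series 2, that of Trp53inp1 was 1.80 ± 1.06 in series 1 and -0.01 ± 0.29 in series 2, and that of Ccng1 was -0.94 ± 0.40 in series 1 and -0.17 ± 0.15 in series 2. Bax was at 0.84 ± 0.67 in series 1 and 0.84 ± 0.30 in series 2, and Mdm2 at -0.22 ± 0.37 in series 1 and -0.05 ± 0.13 in series 2. The interaction of genotype with series tests such a difference. It called 0 of the 9 tested members and 0% of the 14634 genes in either direction, with 786 of these at an unadjusted p under 0.05, so the runs could not be shown to differ for any gene here. The smallest unadjusted p among the members were 0.012 for Bbc3 (-3.71 ± 1.28, series 2 minus series 1), 0.022 for Ccng1 (0.80 ± 0.31) and 0.046 for Pmaip1 (-1.41 ± 0.64), each with an adjusted p of 0.91. For Cdkn1a the interaction was 0.34 ± 0.61, and for Gadd45a -0.25 ± 0.36.

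**Figure D2:**
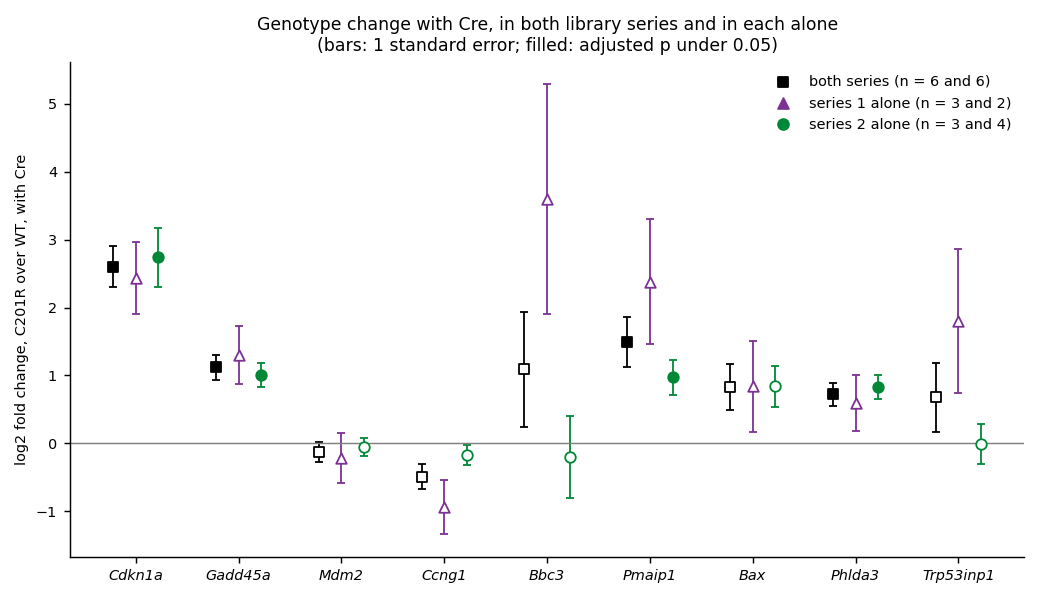
Log2 fold change of C201R over WT with Cre (y axis) for the 9 tested genes, over both series (squares), in series 1 alone (triangles) and in series 2 alone (circles), with 1 standard error and filled symbols for an adjusted p under 0.05. Cdkn1a, Gadd45a, Pmaip1 and Phlda3 are above 0 in every fit, while Bbc3 and Trp53inp1 are above 0 in series 1 and at -0.20 and -0.01 in series 2.

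How firmly each gene was called differed. Cdkn1a stayed called in all 12 fits that left out 1 library, with log2 changes that kept their direction, and in each alternative over both series. Gadd45a was lost with library totals in place of TMM scaling and with the mouse number prefix as a block (0.88 ± 0.30, adjusted p = 0.34, and 0.98 ± 0.21, adjusted p = 0.11). Pmaip1 and Phlda3 lay close to the threshold. Pmaip1 lost its call without any 1 of 9 libraries (mice 14004-2, 14003-4, 14004-5 and 14703-4 of C201R and 14002-6, 14702-3, 14703-5, 14004-3 and 14701-9 of WT), at adjusted p of 0.055 to 0.099. Phlda3 lost it without any 1 of 6 (mouse 14703-4 of C201R and 14002-6, 14004-6, 14702-3, 14703-5 and 14004-3 of WT), at adjusted p of 0.052 to 0.12. When the share of Gm26924 was added to the fit, Cdkn1a (2.53 ± 0.37, adjusted p = 0.0028) and Gadd45a (0.93 ± 0.20, adjusted p = 0.042) remained called, and Pmaip1 (1.07 ± 0.36) and Phlda3 (0.61 ± 0.20) had an adjusted p of 0.29 each. Both also lost their calls with library totals (adjusted p = 0.22 for Pmaip1 and 0.55 for Phlda3), with the prefix block (0.28 for Pmaip1 and 0.20 for Phlda3) and with Xist as a covariate (0.058 for Pmaip1 and 0.052 for Phlda3). Pmaip1 lost it without the series term (adjusted p = 0.072) and Phlda3 with no filter on low counts (adjusted p = 0.087).

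**Figure D3:**
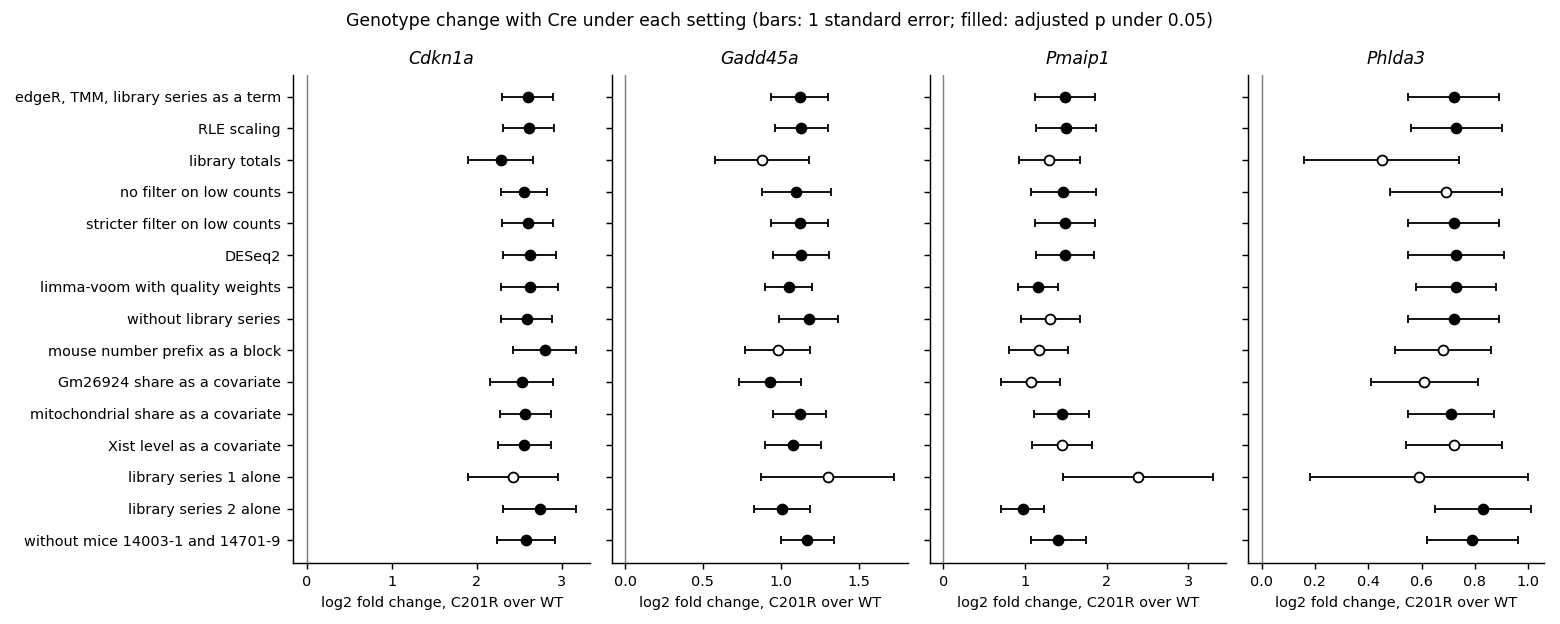
Log2 fold change of C201R over WT with Cre (x axis) of the 4 called genes under each setting (rows), with 1 standard error and filled circles for an adjusted p under 0.05. The Cdkn1a values run from 2.28 to 2.80 and all values of the 4 genes are above 0, while Pmaip1 and Phlda3 pass the test in some settings only.

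In the background pulldowns without Cre, 7 of the 10 genes could be tested and 0 were called, as were 0% of the 14400 genes tested in either direction (455 at an unadjusted p under 0.05). Cdkn1a stood at a median of 18.2 CPM in C201R (lowest 15.4, highest 42.7), against 14.3 CPM in WT (lowest 6.11, highest 19.6). The groups overlapped, with 2 C201R libraries above all WT libraries. The log2 change was 0.68 ± 0.30 (adjusted p = 1). Gadd45a (-0.06 ± 0.46), Mdm2 (-0.30 ± 0.19), Ccng1 (0.25 ± 0.22), Bax (-0.06 ± 0.55), Phlda3 (0.34 ± 0.35) and Trp53inp1 (0.12 ± 0.32) had adjusted p of 1. Pmaip1 had 63 counts over the 6 C201R libraries, 46 of them in mouse 14702-8, and 99 over the 6 WT libraries. Eda2r had 82 counts in C201R and 43 in WT, a ratio of 2.08 per scaled library (exact 95% binomial interval 1.42 to 3.09, counting error only), and its groups overlapped. Of the 82 counts, 38 came from mouse 14004-7, and without it the ratio was 1.24 (0.796 to 1.93).

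Set against the background, the 10 genes differed among themselves. In C201R, of 8 genes tested, 3 were higher with Cre and 1 was lower, where 30.5% of all 14335 genes were higher and 26.3% lower. In WT, of 8 genes tested, 2 were higher with Cre and 2 lower, where 27.7% of all 14264 genes were higher and 32.8% lower. The members' counts are near these shares. Astrocyte markers summed to at most 205 CPM with Cre and at least 1810 CPM without in C201R, and to at most 294 CPM with Cre and at least 1700 CPM without in WT, so the groups also differ in cell types; their part in each gene's difference was not tested. The medians of all genes, 0.06 in C201R and -0.10 in WT, shifted to 0.64 and 0.84 with library totals in place of TMM.

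Gadd45a was enriched with Cre in both genotypes. In C201R its median was 20.4 CPM with Cre and 3.09 CPM without, a log2 change of 2.47 ± 0.28 (adjusted p = 9.8e-07). In WT the medians were 9.3 CPM with Cre and 3.26 CPM without (1.30 ± 0.33, adjusted p = 0.0029). The groups with and without Cre did not overlap in either genotype. Phlda3 had the same pattern, at 1.85 ± 0.26 in C201R (adjusted p = 1e-05) and 1.27 ± 0.26 in WT (adjusted p = 0.00064), again without overlap. The share of all genes whose groups with and without Cre did not overlap was not computed.

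Cdkn1a stood apart from these. In WT its median was 5.31 CPM with Cre, against 14.3 CPM without, and all 6 libraries with Cre lay below all 6 without. That log2 change was -1.74 ± 0.34 (adjusted p = 0.00037), and -0.78 with library totals (adjusted p = 0.067). In C201R the medians were 29.8 CPM with Cre and 18.2 CPM without, the groups overlapped, and the change of 0.43 ± 0.31 did not pass (adjusted p = 0.24; 0.97 with library totals, adjusted p = 0.03).

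Pmaip1 was higher with Cre in C201R, at a median of 4.99 CPM with Cre and 0.279 CPM without (2.40 ± 0.79, adjusted p = 0.015), and the groups overlapped through mouse 14702-8 without Cre, at 5 CPM. Its call was lost in series 2 alone and without mouse 14003-2 (1.84 in both, adjusted p = 0.081 and 0.066), and without mouse 14702-8 the change was 3.76 ± 0.60 (adjusted p = 8.9e-05). With the mouse number prefix as a block it was 3.84 ± 0.89 (adjusted p = 0.0034), and with library totals 3.18 ± 0.69 (adjusted p = 2e-04). In WT the Pmaip1 change was 0.28 ± 0.62 (adjusted p = 0.72). Trp53inp1 was lower with Cre in both genotypes, at -1.39 ± 0.52 in C201R (adjusted p = 0.029) and -1.99 ± 0.37 in WT (adjusted p = 0.00024). In C201R that call was lost without mouse 14004-2, 14004-5 or 14703-4 (adjusted p of 0.073 to 0.12), with library totals (-0.81, adjusted p = 0.16), without the series term (-1.03, adjusted p = 0.058) and with the mouse number prefix as a block (-0.99 ± 0.61, adjusted p = 0.21). Its medians were 2.89 CPM with Cre and 8.81 CPM without in C201R, and 2.57 CPM with Cre and 8.22 CPM without in WT. All 6 WT libraries with Cre lay below all those without, while the groups overlapped in C201R.

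Mdm2 and Ccng1 differed little with Cre, with log2 changes of 0.19 ± 0.20 and -0.27 ± 0.23 in C201R and of -0.29 ± 0.15 and 0.15 ± 0.18 in WT, none called. Though not called, Ccng1 in WT had all 6 libraries with Cre above all those without (lowest 27.8 CPM, against a highest of 27.6 CPM). With library totals Mdm2 and Ccng1 were called higher with Cre in WT, at 0.63 and 1.08, and Mdm2 thereby changed sign, while limma-voom called Mdm2 lower (-0.34 ± 0.14, adjusted p = 0.032). Bax was at 1.40 ± 0.69 in C201R (adjusted p = 0.091) and 0.37 ± 0.48 in WT (adjusted p = 0.52). In C201R it was called with library totals (2.05, adjusted p = 0.0036), with no filter on low counts (1.47, adjusted p = 0.033), by DESeq2 (1.25, adjusted p = 0.045) and without the series term (1.79, adjusted p = 0.014), and it ran from 0.58 to 1.90 when 1 library was left out, lowest without mouse 14003-2. In WT it was called with library totals (1.29, adjusted p = 0.017). Eda2r was found mostly in the pulldowns without Cre, with 14 counts with Cre and 82 without in C201R, and 9 with Cre and 43 without in WT. The ratios of these sums per scaled library were 0.0749 (exact 95% binomial interval 0.0392 to 0.133) in C201R and 0.0705 (0.0302 to 0.147) in WT. They were 0.0428 without C201R mouse 14004-2, 0.126 without C201R mouse 14004-7 and 0.0189 without WT mouse 14703-5, so Eda2r stayed below 1 in each. Bbc3 had 98 counts with Cre and 31 without in C201R, and 83 with Cre and 40 without in WT, with ratios whose intervals include 1.

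**Figure D4:**
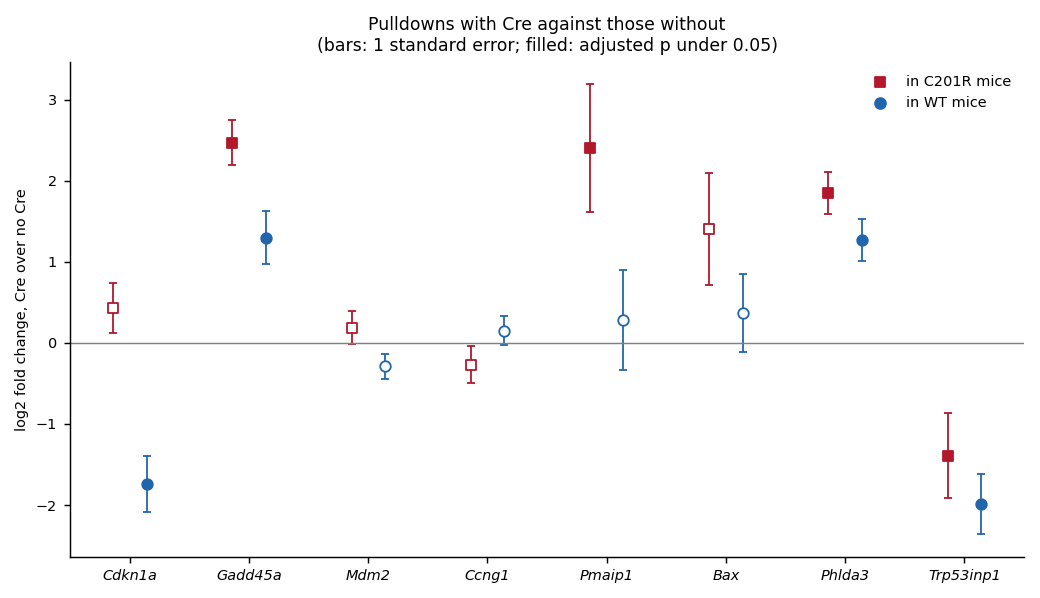
Log2 fold change of pulldowns with Cre over those without (y axis) for the 8 tested genes, in C201R mice (squares) and WT mice (circles), with 1 standard error and filled symbols for an adjusted p under 0.05. Gadd45a and Phlda3 are above 0 and Trp53inp1 below 0 in both genotypes, and Cdkn1a is at 0.43 in C201R and -1.74 in WT.

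The interaction over all 24 libraries tested whether genotype acted differently in pulldowns with and without Cre. It called 0 of the 9 tested members, where 0.0993% of the 16109 genes tested were called higher and 0.031% lower (1462 at an unadjusted p under 0.05). Cdkn1a came nearest, at 1.89 ± 0.44 (adjusted p = 0.089), and was the member that DESeq2 called (1.95 ± 0.45, adjusted p = 0.0074). Over the other alternatives that kept both series and all libraries its adjusted p ran from 0.06 to 0.86. It was 0.028 without C201R mouse 14702-9, whose 42.7 CPM without Cre stood far above its group, and 0.04 without WT mouse 14702-4. Gadd45a (1.18 ± 0.41, adjusted p = 0.35), Ccng1 (-0.74 ± 0.30, adjusted p = 0.45) and Pmaip1 (2.16 ± 0.98, adjusted p = 0.50) had an unadjusted p under 0.05. So with edgeR over all 24 libraries, the Cdkn1a, Gadd45a, Pmaip1 and Phlda3 changes with Cre were not shown to differ from those without it.

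Related genes were read beside the 10, from lists chosen by name, also with earlier results of these data known. Trp53, the gene of p53 itself, averaged 19 CPM in C201R and 16.6 CPM in WT with Cre, with a log2 change of 0.18 ± 0.16 (adjusted p = 0.60). Of 11 tested genes of p53 and its regulators, 0 were higher and 1 was lower: Atm, the kinase that signals DNA breaks to p53, averaged 9.31 CPM in C201R and 17.3 CPM in WT (-0.80 ± 0.17, adjusted p = 0.018). Its relative Atr was at -0.59 ± 0.17 without passing (adjusted p = 0.072). Over all 14634 genes tested with Cre, 2.29% were called higher and 1.82% lower. Median log2 changes were 0.13 in this list and -0.01 over all genes.

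Of 26 tested other reported p53 targets, 2 were higher and 0 lower, beside 2.29% and 1.82% of all genes tested, with a median of 0.27. Sesn2, which restrains growth signalling through mTORC1 when leucine is short, averaged 10.1 CPM in C201R and 4.42 CPM in WT (1.22 ± 0.23, adjusted p = 0.0087). Gdf15, a secreted stress cytokine, was at 5.42 ± 1.02 (edgeR adjusted p = 0.0087). It had 293 counts over the C201R libraries and 8 over the WT libraries. The ratio was 52.1 per scaled library (exact 95% binomial interval 26.1 to 122, counting error only). All 8 WT counts came from mouse 14701-9, the WT library with Cre that had the highest Gm26924 share. Without it the ratio had no upper bound, and its lower 95% limit was 106. Both genes are known from textbooks as targets of ATF4 as well as of p53. The other 24 did not pass. The most abundant of them, Zmat3, an RNA-binding target of p53, averaged 357 CPM in C201R and 391 CPM in WT (-0.09 ± 0.14, adjusted p = 0.79). Sesn1, the p53-dependent sestrin, was at -0.53 ± 0.19 (adjusted p = 0.15). Others of the 24 went up without passing. Aifm2 was at 1.08 ± 0.40 (adjusted p = 0.15) and Plk2 at 0.87 ± 0.27 (adjusted p = 0.085).

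Of 14 tested genes of the Bcl-2 family and caspases, 0 were called, with a median of 0.07. The most abundant were the survival genes Bcl2l2 (76.7 CPM in C201R, 68.7 CPM in WT, 0.14 ± 0.13) and Mcl1, the partner of Noxa (65.9 CPM in C201R, 69.3 CPM in WT, -0.02 ± 0.22). Of 13 tested CDK inhibitors, pocket proteins and G1 cyclins, 1 was higher and 0 lower, beside 2.29% and 1.82% of all genes tested. That was Ccnd2, cyclin D2, at 11.6 CPM in C201R and 3.56 CPM in WT (1.68 ± 0.34, adjusted p = 0.015). Cdkn1b, the gene of the related inhibitor p27, was at 0.76 ± 0.23 (adjusted p = 0.081).

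Of 5 tested paralogs of the 10 genes, 1 was higher, beside 2.29% of all genes tested: Gadd45g, at 7.54 CPM in C201R and 2.98 CPM in WT (1.20 ± 0.32, adjusted p = 0.048). Gadd45b was at 0.09 ± 0.28 (adjusted p = 0.90) and Ccng2 at -0.11 ± 0.28 (adjusted p = 0.88). None of 7 tested proliferation markers was called. The most abundant, Pcna and Birc5, were at 0.36 ± 0.21 (adjusted p = 0.40) and -0.09 ± 0.56 (adjusted p = 0.95).

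**Figure D5:**
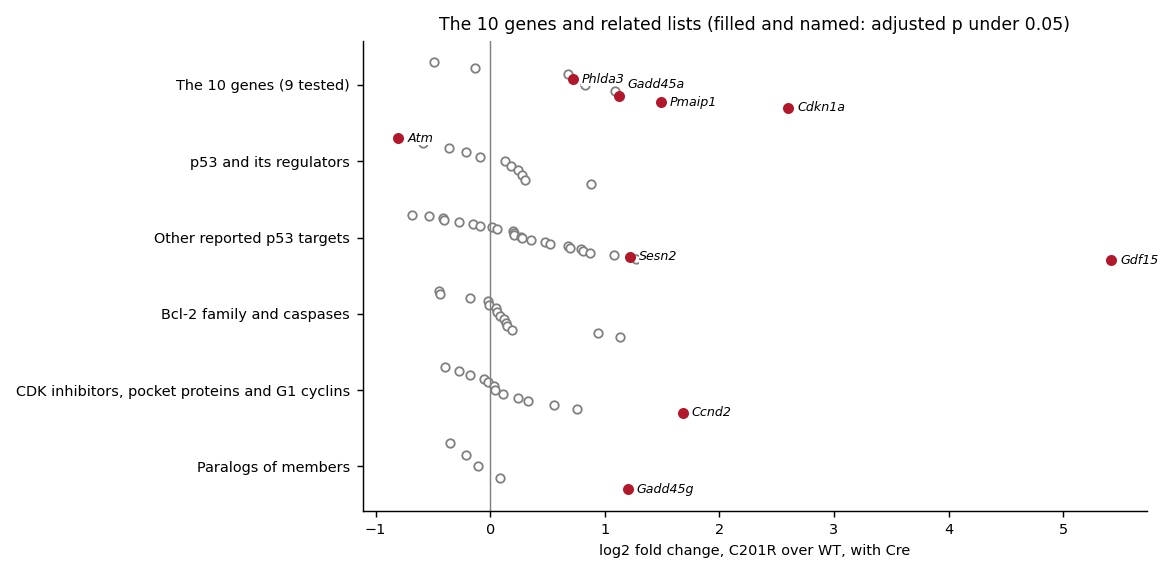
Log2 fold change of C201R over WT with Cre (x axis) of each tested gene of 6 lists (rows), with filled, named points for an adjusted p under 0.05. Beside the 4 called of the 10 genes, the named points are Atm at -0.80 and Sesn2, Gdf15, Ccnd2 and Gadd45g, all above 1, and most open points lie around 0.

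The genes whose levels ran most like those of the 4 called members were sought over all 24 libraries, by the Pearson correlation of log2(CPM + 1) among 10563 genes with a mean of at least 2 CPM with Cre. For Cdkn1a they were Clic4 (r = 0.848), Ddr2 (0.84) and Lhfpl2 (0.775). For Gadd45a they were Oaz1 (0.971), Hsp90ab1 (0.958) and Bex2 (0.955), and for Phlda3 they included Rab3a (0.95) and Aars (0.95). For Pmaip1 they were Irx2 (0.776), Arl14ep (0.763) and Clvs2 (0.758). Whether these 11 genes were themselves called between genotypes is not reported here. The 24 points share groups, depth and pulldown background, and once group means were removed the correlations were lower, at most 0.317 for the Cdkn1a neighbours and between 0.693 and 0.808 for those of Gadd45a.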

How the data were processed

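RNA bound to HA-tagged ribosomes was sequenced from 24 spinal cords. The deposited files hold RSEM expected counts, TPM (transcripts per 1000000) and a mean transcript length per gene; Bowtie2 2.2.0 and RSEM 1.2.12 are named in the submitters' processing notes, and the genome build and annotation are not given in the sources used here. RSEM shares out reads that fit several genes. The authors' expected counts were rounded to whole numbers here; the deposited TPM were used only to compare levels between genes. Members and lists were chosen with earlier results of these data known. All 10 names were in the files. Of 149 listed symbols, 146 were found by name, 2 (Tigar, Pidd1) by gene identifier, and Slc18a3 was not analysed here. Of 38924 gene identifiers, 37607 matched the GENCODE names.

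For each comparison of 2 groups, only their 12 libraries were fitted, with filterByExpr, TMM and the robust quasi-likelihood test of edgeR 4.0.16 (R 4.3.3), and library series as a term. P-values were adjusted by Benjamini-Hochberg over all genes tested, and adjusted p under 0.05 is called. Standard errors are the log2 change over the square root of F. CPM are scaled by TMM over all 24 libraries, so their ratios can differ a little from the fitted changes. Each library bears the number of a separate mouse, and replicates differed beyond sampling noise (chi-square per gene of at least 22.2). The procedure was tested on simulated data. Alternatives were RLE and no scaling, other filters, DESeq2 1.42.0, limma 3.58.1 (voom with quality weights), covariates (Gm26924 share, mitochondrial share, Xist level, since the labels give no sex), library series, mouse number prefix as a block, and libraries left out. Named genes are the 10, and from each list up to 4 called with Cre by smallest p, or else the 2 most abundant. Trp53, Atr, Zmat3, Sesn1, Aifm2, Plk2, Cdkn1b, Gadd45b and Ccng2 were added after their values were seen. The narrower spacer in the promoter search was set after the wider one had been seen. Intervals cover counting error only, and PCR copies are not independent molecules. Of the nearest patterns, 1 gene is not reported here.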

Additional observations from a re-analysis of the deposited data

Results flagged for a closer look

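Of 40 sets of 6 libraries (10 genes in 4 groups), 9 held a library whose gap to its nearest neighbour exceeded Dixon's 95% critical share of the group's range; chance flags about 1 set in 20. In C201R mouse 14003-1 with Cre, Bbc3 stood at 4.6 CPM on 25 counts (next 1.25 CPM), Bax at 27.1 CPM on 147 counts (next 12.6 CPM) and Trp53inp1 at 11.4 CPM on 62 counts (next 4.4 CPM). This library also had the highest Gm26924 share of all, 43.26%. In WT mouse 14701-9 with Cre, Bax stood at 12.8 CPM (next 5.54 CPM) and Trp53inp1 was low, at 0.665 CPM on 7 counts (next 2.3 CPM), and its Gm26924 share of 30.8% was the highest in its group. In WT mouse 14703-5 with Cre, Eda2r stood at 0.216 CPM on 7 counts (next 0.0323 CPM). Without Cre, Cdkn1a stood at 42.7 CPM in C201R mouse 14702-9 on 473 counts (next 21.7 CPM), Pmaip1 at 5 CPM in C201R mouse 14702-8 on 46 counts (next 1.05 CPM), and Bax at 6.81 CPM in WT mouse 14702-4 on 77 counts (next 2.62 CPM).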

How the results depend on the processing

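The count of members called between genotypes with Cre, 4, was 1 with library totals, 1 when mouse number prefixes formed the replicate block, 2 when the share of Gm26924 and 2 when the level of Xist was a covariate, 0 in series 1 alone and 2 to 4 with 1 library left out; it was 3 to 5 otherwise. Prefixes 14002, 14003 and 14702 hold 1 genotype with Cre and add nothing to the genotype term of that block, and what a prefix stands for is not given in the labels. The interaction of genotype and Cre called 1 member by DESeq2 and 0 to 1 with 1 library left out. Library totals shifted the median of all genes from -0.01 to -0.26 in the genotype comparison with Cre. Changes of sign were all of members not called with TMM. With Cre, Trp53inp1 went to -0.02 with limma-voom and -0.008 in series 2 alone, and Bbc3 to -0.20 in series 2 alone. Without Cre, Gadd45a went to 0.21 with limma-voom, and Bax to 0.70 with limma-voom, 0.17 without the series term, 0.55 with the replicate block and 0.33 in series 2 alone. Between Cre and no Cre, Ccng1 in C201R went to 0.32 and Mdm2 in WT to 0.63 with library totals, and Mdm2 in C201R to -0.004 and Bax in WT to -0.005 in series 2 alone. In the genotype by Cre interaction, Mdm2 went to -0.001 with library totals, Trp53inp1 to -0.19 with limma-voom, -0.40 in series 2 alone and -0.06 without mice 14003-1 and 14701-9, and Bbc3 to -0.23 in series 2 alone. In the genotype by series interaction, Gadd45a went to 0.15 with library totals, Bax to -0.21 with limma-voom and -0.06 without those 2 mice, and Mdm2 to -0.02 without them (for all but the genotype comparison with Cre, leaving out those mice was chosen after seeing the data). With 1 library left out, signs changed for Bax (-0.29 to 0.35), Gadd45a (-0.34 to 0.13) and Trp53inp1 (-0.02 to 0.36) between genotypes without Cre, Mdm2 with Cre in C201R (-0.004 to 0.28), Bax with Cre in WT (-0.02 to 0.84) and Bax in the series interaction (-0.69 to 0.69). The cause of these changes was not tested.

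Over all genes, the 601 called between genotypes with Cre (335 higher) became 32 (24 higher) with library totals, 291 without the series term, 75 with the block, 122 with the Gm26924 share, 359 with the Xist level and 1 in series 1 alone; 1315 by DESeq2, 2004 by limma-voom, 1370 in series 2 alone, 1073 with the mitochondrial share, 1950 without mice 14003-1 and 14701-9, and 170 to 936 with 1 library left out. For pulldowns with Cre over those without, library totals called 5657 higher of 7941 in C201R and 6881 of 9322 in WT. Without Cre, DESeq2 called 2 genes between genotypes and limma-voom 1. The genotype by series interaction called 6 genes by DESeq2. The genotype by Cre interaction called 115 by DESeq2, 79 by limma-voom, 43 without the 2 mice, 6 with the block and 1 with library totals, against 21. By mean TPM in place of CPM, the log2 ratio of C201R to WT with Cre was 0.65 for Gadd45a (1.16 by CPM), 0.79 for Pmaip1 (1.31), 0.15 for Phlda3 (0.71), -0.53 for Mdm2 (-0.18), 0.36 for Bbc3 (1.65), 0.36 for Bax (1.04), 0.37 for Trp53inp1 (0.89), 2.15 for Cdkn1a (2.58), -0.77 for Ccng1 (-0.53) and 0.90 for Eda2r (0.97). Leaving out single libraries from the ratios of summed counts of Eda2r, Bbc3 and Gdf15 was added after seeing the data. Low counts limit Bbc3, Eda2r and Pmaip1 most.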

Other observations

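The mean transcript length that RSEM reports for Trp53inp1 reflects which of its transcripts the reads were shared among. With Cre, it was 1677, 2341 and 2859 bases in the 3 C201R libraries of series 1 and 2458 and 3238 bases in the 2 WT libraries of series 1. In series 2 it was 4548 to 5404 bases in 3 C201R libraries and 4943 to 5404 bases in 4 WT libraries, so the runs did not overlap within the pulldowns with Cre. Without Cre, the 2 libraries of series 1 were at 1813 bases in C201R and 5141 bases in WT. Trp53inp1 counts behind these values ran from 7 to 150 per library. Counts per transcript were not analysed here.

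Filtered for low counts, Eda2r entered no test. With no filter it was called lower with Cre in both genotypes, at log2 changes of -4.09 ± 1.07 in C201R (edgeR adjusted p = 0.00092) and -3.96 ± 1.45 in WT (adjusted p = 0.031), on the few counts given above.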
